A study of Rattus norvegicus with 20 samples.

Results

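The genes described here encode the machinery of oxidative phosphorylation: the subunits of respiratory complexes I to V and cytochrome c, with an assembly factor of complex I and one of the respiratory supercomplex that share their symbols' prefixes. Members were the probe sets of the deposited table of expressed genes whose single gene symbol begins with Nduf, Sdha to Sdhd, Uqcr, Cox4 to Cox8 or Atp5, or is Cyc1 or Cycs. They came to 65 probe sets for 55 gene symbols, among 17191 expressed probe sets that are not chip controls and 31042 tested in all. Complex I had 29 probe sets, complex II 4, complex III 4, cytochrome c 2, complex IV 12 and complex V 14. The rule uses gene symbols alone, not values.

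The study placed rat subplate neurons, early-born cells that lie beneath the developing cortical plate, above a layer of other cortical cells and asked whether that changes their transcripts. Cells from the posterior neocortex at embryonic day 17 were panned on an antibody to the p75 neurotrophin receptor, and the adherent cells were grown on coverslips in serum-free medium. The 4 groups were cocultures held for 96 h over a feeder layer made of the cells that did not adhere, controls held for 96 h over wells with wax spacers and medium only, and the same cocultures and controls held for 24 h. Each group had 5 biological replicates of pooled coverslips, 100 ng of RNA was amplified through repeated rounds, and each of the 20 samples had an Affymetrix rat array of its own. Wax spacers kept the coverslip from touching the feeder cells, and all groups shared the panning, the medium and the coating.

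Complexes I to IV pass electrons from NADH and succinate through ubiquinone and cytochrome c to oxygen, and complexes I, III and IV pump protons across the inner mitochondrial membrane as they do so. Complex V, the ATP synthase, lets the protons back through a rotating ring and makes ATP, on which neurons rely to hold their ion gradients and run their synapses. All members are nuclear genes, whose products are made in the cytosol and imported. The mitochondrially encoded subunits are not among them.

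Nuclear genes of this machinery are textbook targets of the transcription factors NRF1, GABP (also called NRF2) and YY1, so their promoters were searched on both strands for 3 motifs: the GC-rich NRF1 motif, CCGGAAG for GABP and AAGATGGC for YY1. Promoters were taken from RefSeq on the rat build GRCr8, from 250 bases before to 50 bases after the start of each gene, and 45 of the 55 member genes had one. One promoter for each complex, and the pair of c-ring genes whose changes are compared below, are shown with motif matches on either strand in capitals:
Ndufs7 (complex I, chr7:10110449-10110748, minus strand): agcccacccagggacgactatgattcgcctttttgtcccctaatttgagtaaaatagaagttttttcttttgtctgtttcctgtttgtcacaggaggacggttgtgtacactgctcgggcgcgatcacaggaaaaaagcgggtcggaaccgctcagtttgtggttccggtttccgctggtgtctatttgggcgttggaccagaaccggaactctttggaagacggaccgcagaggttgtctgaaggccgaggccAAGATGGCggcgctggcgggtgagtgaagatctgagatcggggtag
Sdha (complex II, chr1:30764303-30764602, plus strand): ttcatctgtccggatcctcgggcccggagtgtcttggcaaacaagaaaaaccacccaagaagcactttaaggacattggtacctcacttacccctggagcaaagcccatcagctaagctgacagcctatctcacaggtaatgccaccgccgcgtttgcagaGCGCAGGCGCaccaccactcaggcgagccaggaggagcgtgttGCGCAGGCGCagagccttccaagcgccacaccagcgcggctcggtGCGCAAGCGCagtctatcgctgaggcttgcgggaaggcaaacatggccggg
Uqcrh (complex III, chr5:134790833-134791132, minus strand): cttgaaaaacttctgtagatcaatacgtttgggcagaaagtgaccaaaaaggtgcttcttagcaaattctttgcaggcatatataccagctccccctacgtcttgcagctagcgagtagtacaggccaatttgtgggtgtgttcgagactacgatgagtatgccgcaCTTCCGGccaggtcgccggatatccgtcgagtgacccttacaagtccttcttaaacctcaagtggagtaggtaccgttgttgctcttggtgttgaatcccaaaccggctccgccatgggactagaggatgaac
Cox4i1 (complex IV, chr19:65630133-65630432, plus strand): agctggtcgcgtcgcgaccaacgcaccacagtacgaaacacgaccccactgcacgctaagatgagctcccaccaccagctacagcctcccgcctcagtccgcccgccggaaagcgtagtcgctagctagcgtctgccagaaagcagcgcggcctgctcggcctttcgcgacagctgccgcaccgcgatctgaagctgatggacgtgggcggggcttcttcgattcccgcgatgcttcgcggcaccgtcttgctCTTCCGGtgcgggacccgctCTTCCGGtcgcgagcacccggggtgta
Atp5o (complex V, chr11:44657434-44657733, minus strand): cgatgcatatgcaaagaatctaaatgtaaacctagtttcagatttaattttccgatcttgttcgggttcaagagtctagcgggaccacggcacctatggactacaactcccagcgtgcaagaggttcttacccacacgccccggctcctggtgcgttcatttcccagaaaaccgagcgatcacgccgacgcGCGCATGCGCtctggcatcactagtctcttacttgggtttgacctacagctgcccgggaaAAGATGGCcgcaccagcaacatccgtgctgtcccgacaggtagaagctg
Atp5g1 (complex V, c ring, chr10:81523296-81523595, minus strand): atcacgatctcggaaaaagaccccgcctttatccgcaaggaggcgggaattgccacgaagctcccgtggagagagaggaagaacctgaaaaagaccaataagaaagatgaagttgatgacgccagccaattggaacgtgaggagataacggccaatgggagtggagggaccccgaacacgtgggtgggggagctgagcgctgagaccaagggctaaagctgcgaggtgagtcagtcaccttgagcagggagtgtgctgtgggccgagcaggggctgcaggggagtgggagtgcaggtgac
Atp5g3 (complex V, c ring, chr3:79220615-79220914, minus strand): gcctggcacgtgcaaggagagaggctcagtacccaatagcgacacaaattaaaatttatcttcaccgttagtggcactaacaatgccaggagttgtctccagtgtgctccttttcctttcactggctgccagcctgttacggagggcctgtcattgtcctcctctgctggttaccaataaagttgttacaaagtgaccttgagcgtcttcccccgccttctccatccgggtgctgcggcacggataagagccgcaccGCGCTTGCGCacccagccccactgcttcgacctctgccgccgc

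Sdha held 3 NRF1 matches, Cox4i1 held 2 GABP matches beyond its start, and Ndufs7 had a YY1 match just past its start. Atp5o held both an NRF1 and a YY1 match, Uqcrh held 1 GABP match, Atp5g3 an NRF1 match just past its start, and Atp5g1 had none of the 3. At least 1 of the motifs was present in 26 of 45 member promoters (57.8%), against 31.2% of 6909 promoters of expressed genes and 14.6% of 33469 rat promoters. By motif the shares in members were 17.8% for NRF1, 35.6% for GABP and 20.0% for YY1, against 10.8%, 19.4% and 5.79% in expressed genes. Of 3 general promoter motifs searched beside them, the CCAAT box (CCAAT) was in 35.6% of member promoters and 37.7% of those of expressed genes, the TATA box (TATAAA) in 4.44% and 6.12%, and the GC box (GGGCGG) in 42.2% and 63.4%. No 2 of the 3 motifs marked in capitals overlapped in a member promoter. The windows differ in base composition, with a median of 57.7% G and C in members and 61.3% in expressed genes. A match of letters is not a binding site, and these data hold no measure of binding.

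Values are ratios, as deposited: each probe set's signal in an array over its median in all 20 arrays. They were taken to log2, so that 0 is a probe set's own median and -1 is a level of 0.5 times it, and they hold no level that could be compared between genes. In bulk RNA, fewer cells of a type and less transcript per cell cannot be told apart. Changes were tested with limma over all 31042 probe sets, with Benjamini-Hochberg adjustment, and a probe set rose or fell where its adjusted p was below 0.05.

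The arrays differed in more than their group. The 18 bacterial and phage control probe sets averaged 0.70 ± 0.64 on the log2 scale in cocultures and -0.63 ± 0.66 in controls at 96 h, and 0.32 ± 0.65 in cocultures and -0.54 ± 0.67 in controls at 24 h (SD, n = 5). Replicate 5 stood apart in all 4 groups: its control probe sets lay at 1.62, 0.50, 1.36 and 0.52 in the 96 h coculture, the 96 h control, the 24 h coculture and the 24 h control, the highest of each group. The median of all expressed probe sets in those 4 arrays was -0.52, -0.04, -0.44 and -0.09, the lowest of each group. Counts at 96 h without replicate 5 and with these controls as a covariate are therefore given for the members and for each gene list; their part in the results was not tested. The difference between 5' and 3' probe sets of Gapdh, a measure of RNA length, averaged -0.11 ± 0.12 in cocultures and 0.11 ± 0.27 in controls at 96 h.

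At 96 h most of the machinery was lower in the cocultures. Of the 65 probe sets 52 fell and 1 rose (80.0% fell), where 30.0% of expressed probe sets fell and 8.52% rose. The median change of the members was -0.75 on the log2 scale, against -0.26 over all expressed probe sets. All 5 cocultured arrays lay below all 5 controls in 43 members and above them in 1, patterns that 18.1% and 4.23% of expressed probe sets showed, and 55 members were lower in the coculture of every same-numbered pair, against 41.2% of expressed probe sets. The falls were in every complex: 24 of 29 probe sets of complex I, 4 of 4 of complex II, 4 of 4 of complex III, both of cytochrome c, 7 of 12 of complex IV and 11 of 14 of complex V.

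**Figure D1:**
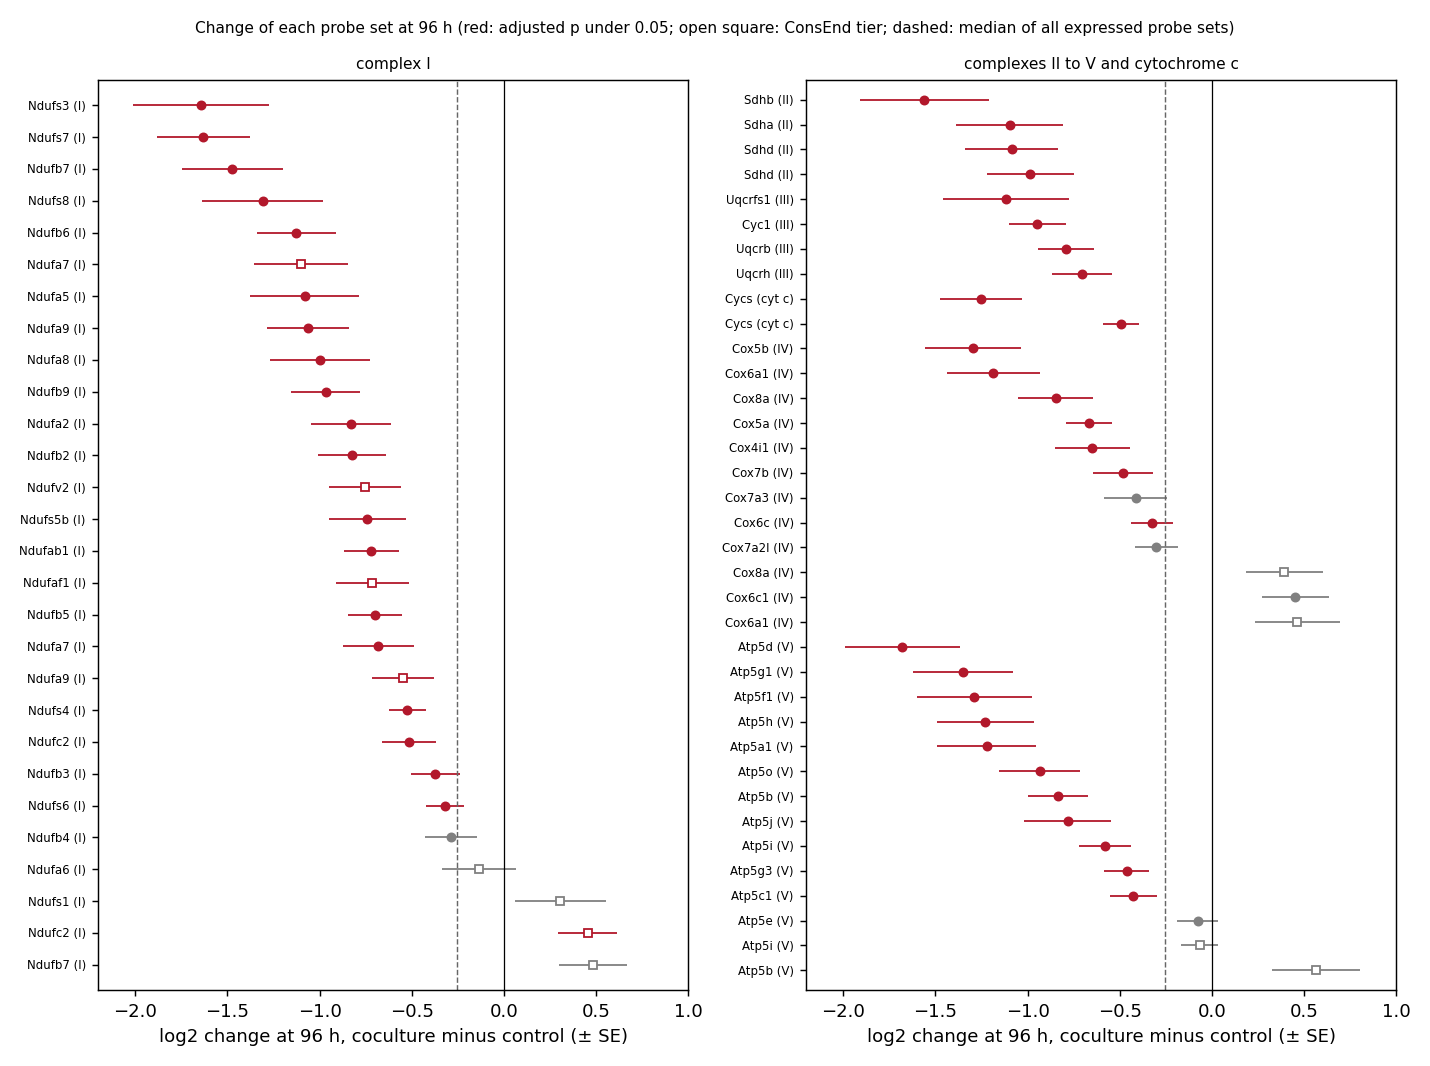
Log2 change of 64 members at 96 h, coculture minus control, with its standard error (n = 5 arrays a group), for complex I on the left and the other complexes on the right. Red marks an adjusted p under 0.05 and open squares the probe sets labelled ConsEnd; 57 of the 64 lie below 0, and the dashed line is the expressed median of -0.26.

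Without replicate 5 in any group, 54 members fell and 5 rose, where 39.5% of expressed probe sets fell and 15.2% rose. Making the array medians equal moved the median of all expressed probe sets to -0.02; 44 members then fell and 3 rose, where 22.1% of expressed probe sets fell and 16.2% rose, and the members' median was -0.52. With the replicate number as a block, 55 fell and 6 rose (47.1% and 16.8% of expressed probe sets). When the hybridisation controls entered the fit as a covariate, 15 fell and 1 rose, where 6.60% of expressed probe sets fell and 9.00% rose, and the members' median was -0.23, against 0.02 for the expressed probe sets. With both terms no member was called, and 0.0175% of expressed probe sets fell at the same adjusted threshold. At an unadjusted p under 0.05, 18 members fell and 1 rose (limma). No share of expressed probe sets at an unadjusted p is given, here or below, so such counts have nothing to be read against. The 15 that fell with the covariate were 6 of complex I (Ndufa9, Ndufb6, Ndufb7, Ndufb9, Ndufs4 and Ndufs7), Cyc1 and Uqcrb of complex III, both of Cycs, Cox5a and Cox5b of complex IV, and Atp5b, Atp5d and Atp5g1 of complex V. The 1 that rose with the covariate was Ndufa6, at 0.46 (limma adjusted p = 0.0225). Without the covariate Ndufa6 stood at -0.14 and was not called (limma adjusted p = 0.582).

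**Figure D2:**
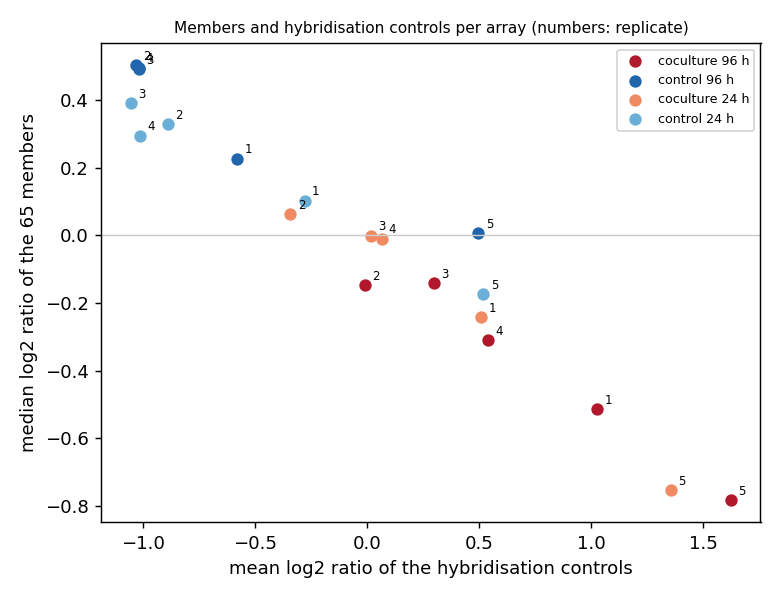
Median log2 ratio of the 65 members in each array against the mean log2 ratio of the hybridisation controls, by group and replicate number. The cocultures of 96 h lie between -0.78 and -0.14 for the members and the controls of 96 h between 0.01 and 0.50, and the arrays with high hybridisation controls have low member medians.

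In complex I the core subunits Ndufs3, Ndufs7 and Ndufs8, which belong to the arm that carries electrons towards ubiquinone, all fell. Ndufs7, which holds the last iron-sulphur cluster before ubiquinone, had log2 ratios of -0.80, -0.34, -0.42, -0.60 and -1.67 in the 96 h cocultures, against 0.82, 1.16, 1.16, 0.98 and 0.19 in the 96 h controls. The groups did not overlap, and replicate 5 was the lowest array of each. The change was -1.63 ± 0.25 (SE), or 3.10-fold lower in cocultures, with an adjusted p of 0.000218 in limma. Ndufs3, another core subunit of this arm, averaged -0.78 ± 0.67 in cocultures and 0.87 ± 0.51 in controls (SD, n = 5), a change of -1.64 ± 0.37 (limma adjusted p = 0.00411). Ndufs8, which carries iron-sulphur clusters, changed by -1.31 ± 0.33 (limma adjusted p = 0.00768). The arm that takes electrons from NADH was represented by Ndufv2, which fell by 0.75 (limma adjusted p = 0.00966), and by Ndufs1, whose probe set stood at 0.31 ± 0.25 with an adjusted p of 0.315. Ndufv1, the subunit that binds NADH, was not among the members.

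The accessory subunits of complex I surround the core and are needed for its assembly and stability. Of 12 probe sets of the Ndufa type, with Ndufs4, Ndufs5b, Ndufs6 and the acyl carrier protein Ndufab1, 11 fell, with a median of -0.73. Of 10 probe sets of the Ndufb and Ndufc types, which lie in the membrane arm, 7 fell and 1 rose, with a median of -0.61. Ndufb7 had the widest fall among them in its better supported probe set: -1.03 ± 0.46 in cocultures and 0.44 ± 0.46 in controls (SD, n = 5), a change of -1.47 ± 0.27 (limma adjusted p = 0.00101). Ndufs4, whose loss in mice gives a model of Leigh syndrome, fell by only 0.52 ± 0.10, but with little spread within the groups (limma adjusted p = 0.00138). Ndufb6 fell by 1.13 ± 0.21 (limma adjusted p = 0.00122). Ndufb4, at -0.29 ± 0.14, missed the threshold with an adjusted p of 0.115, and fell with the replicate block (limma adjusted p = 0.00488). With the hybridisation covariate it stood at 0.09 (limma adjusted p = 0.688). The assembly factor Ndufaf1, chosen for mention after its values were seen, fell by 0.71 (limma adjusted p = 0.0137). Its groups overlapped, and its probe set was designed from 1 sequence. The call was kept with the replicate block (limma adjusted p = 0.000614) and lost with equal array medians (limma adjusted p = 0.0675). With the hybridisation covariate it stood at -0.35 and was not called (limma adjusted p = 0.342).

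Complex II, succinate dehydrogenase, is shared with the citric acid cycle and had a median change of -1.09, the lowest of the 5 complexes without a covariate; with the hybridisation covariate it was -0.26, against -0.29 in complex III. Sdhb, its iron-sulphur subunit, had log2 ratios of -1.15, -0.14, -0.21, -0.57 and -1.76 in the 96 h cocultures, against 0.55, 1.23, 1.08, 1.16 and -0.05 in the 96 h controls. The lowest control, replicate 5, lay just above the highest coculture, and the change was -1.56 ± 0.35 (2.95-fold lower in cocultures, limma adjusted p = 0.00417). The flavoprotein Sdha averaged -0.40 ± 0.43 in cocultures and 0.70 ± 0.49 in controls (SD, n = 5), and its groups overlapped (change -1.10 ± 0.29, limma adjusted p = 0.0103). The membrane anchor Sdhd had 2 probe sets, which gave nearly the same change, -1.09 and -0.98 (limma adjusted p = 0.00511 and 0.00631). Sdhc, the other anchor, was not among the members.

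In complex III the subunits that carry the redox centres, Cyc1 and Uqcrfs1, fell. Cyc1, whose haem hands electrons to cytochrome c, had -0.37, -0.26, -0.17, -0.43 and -1.09 in the 96 h cocultures, against 0.43, 0.52, 0.53, 0.53 and 0.41 in the 96 h controls. Its controls hardly varied (0.48 ± 0.06, SD), and the change of -0.95 ± 0.15, or 1.93-fold lower in cocultures, had an adjusted p of 0.000349 in limma. Uqcrfs1, the Rieske iron-sulphur protein, changed by -1.12 ± 0.34 (limma adjusted p = 0.0212), with overlapping groups. Its value with the hybridisation covariate was 0.03 (limma adjusted p = 0.931), and its call was lost in 5 of 20 fits that left out 1 array, each of them a 96 h array: replicate 1 or 5 of the cocultures or replicate 2, 3 or 4 of the controls (limma adjusted p up to 0.0622). Both small subunits fell as well, Uqcrb by 0.79 and the hinge protein Uqcrh by 0.71 (limma adjusted p = 0.0014 and 0.00504).

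Cytochrome c, the mobile carrier that also triggers apoptosis when it leaves mitochondria, was read by 2 probe sets of Cycs. The first had -0.92, -0.32, -0.29, -0.61 and -1.10 in the 96 h cocultures, against 0.48, 0.75, 0.94, 0.68 and 0.17 in the 96 h controls, without overlap. It changed by -1.25 ± 0.22, and the second by -0.50 ± 0.10, also without overlap (limma adjusted p = 0.000758 and 0.00169). The size of the fall therefore depends on the probe set, while its sign does not.

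Complex IV, cytochrome c oxidase, had the smallest median change, -0.45, with 7 of 12 probe sets called. Cox5b, a subunit facing the matrix, had -0.51, -0.26, -0.23, -0.54 and -1.11 in the 96 h cocultures, against 0.58, 1.24, 1.08, 0.93 and -0.0029 in the 96 h controls. These did not overlap, and the change was -1.30 ± 0.26 (2.46-fold lower in cocultures, limma adjusted p = 0.00198). Cox5a, which also faces the matrix, fell by 0.67 (limma adjusted p = 0.00104). Cox4i1, the regulatory subunit that binds ATP, averaged -0.51 ± 0.30 in cocultures and 0.14 ± 0.28 in controls (SD, n = 5), with overlap. Its change of -0.65 ± 0.20 had an adjusted p of 0.0242 in limma, which was up to 0.0766 in 5 of 20 fits that left out 1 array: replicate 1 or 5 of the 96 h cocultures or replicate 2, 3 or 4 of the 96 h controls. Its value with the hybridisation covariate was 0.02 (limma adjusted p = 0.949). Cox7a3, now named Cox7a2, stood at -0.41 and the supercomplex factor Cox7a2l at -0.30, and neither passed the test (limma adjusted p = 0.0676 and 0.0531); both fell with the replicate block (limma adjusted p = 0.000355 and 0.00616). Cox7a2l stood at -0.03 with the hybridisation covariate and at 0.06 with covariate and block.

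In complex V both the catalytic head and the membrane ring held members that fell. Atp5d, a small subunit of the rotating central stalk, had -0.92, -0.27, -0.35, -0.64 and -1.40 in the 96 h cocultures, against 0.70, 1.43, 1.47, 1.20 and 0.026 in the 96 h controls. The groups did not overlap, and its change of -1.68 ± 0.31, or 3.21-fold lower in cocultures, was the largest of all 65 members (limma adjusted p = 0.00104). Atp5e, the other small subunit of that stalk, stood at -0.08 ± 0.11 with an adjusted p of 0.568 (limma; chosen for mention after its values were seen). The catalytic subunits Atp5a1 and Atp5b fell by 1.22 and, in its better supported probe set, 0.83 (limma adjusted p = 0.0033 and 0.00163). Atp5c1, the shaft that turns inside them, fell by 0.43 (limma adjusted p = 0.0184), a call lost without replicate 5 of the 96 h cocultures or replicate 2 of the 96 h controls (limma adjusted p up to 0.056). The 4 subunits of the peripheral stalk, which holds the head still, all fell, with a median of -1.08 and a range of -1.29 to -0.78.

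The genes Atp5g1 and Atp5g3 encode the same mature protein of the proton-carrying c ring, with different import sequences. Atp5g1 had -0.53, -0.16, -0.29, -0.53 and -1.15 in the 96 h cocultures, against 0.54, 1.24, 1.15, 1.09 and 0.076 in the 96 h controls. Atp5g3 had -0.16, -0.12, -0.12, -0.15 and -0.42 in the 96 h cocultures, against 0.23, 0.39, 0.45, 0.33 and -0.051 in the 96 h controls. Each gene's groups were apart, and Atp5g1 changed by -1.35 and Atp5g3 by -0.46 on the log2 scale. The difference of the genes, Atp5g1 minus Atp5g3 within each array, was -0.34 ± 0.26 in cocultures and 0.55 ± 0.31 in controls (SD, n = 5), -0.89 apart. That gap had an exact two-sided permutation p of 0.00794, the smallest that 252 splits can give, and 0.0476 after adjustment over 6 such tests. At 24 h the gap was -0.58 (exact permutation p = 0.0238, adjusted 0.0476). These splits ignore the replicate numbers, whose arrays deviate together. When only the arrays of a same-numbered pair were swapped, the gap was negative in 5 of 5 pairs at both times. Its exact permutation p was 0.0625 (adjusted 0.0938), the smallest that 32 arrangements can give. That test cannot reach 0.05 with 5 pairs, so it does not decide either call.

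Other pairs of genes with related symbols were tested the same way. Cox6c minus Cox6c1 differed by -0.78 between 96 h cocultures and controls (exact permutation p = 0.0159, adjusted 0.0476). Swaps within pairs gave an exact permutation p of 0.0625 (adjusted 0.0938). At 24 h the gap was -0.41 (exact permutation p = 0.175, adjusted 0.262). Cox6c1 was named because its change was opposite in sign to that of complex IV. Its 96 h gap to Cox6c reuses the values that selected it, so no conclusion is drawn from that test. Cox6c1 is a pseudogene entry in current RefSeq, so what its probe set measures is uncertain, as it is for Atp5h and Ndufs6, which have such entries too. Cox7a3 minus Cox7a2l differed by -0.11 at 96 h, with overlap between the groups (exact permutation p = 0.317, adjusted 0.38). These are ratios of probe sets, and a difference in how steeply 2 probe sets respond to the same change would also enter them.

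**Figure D3:**
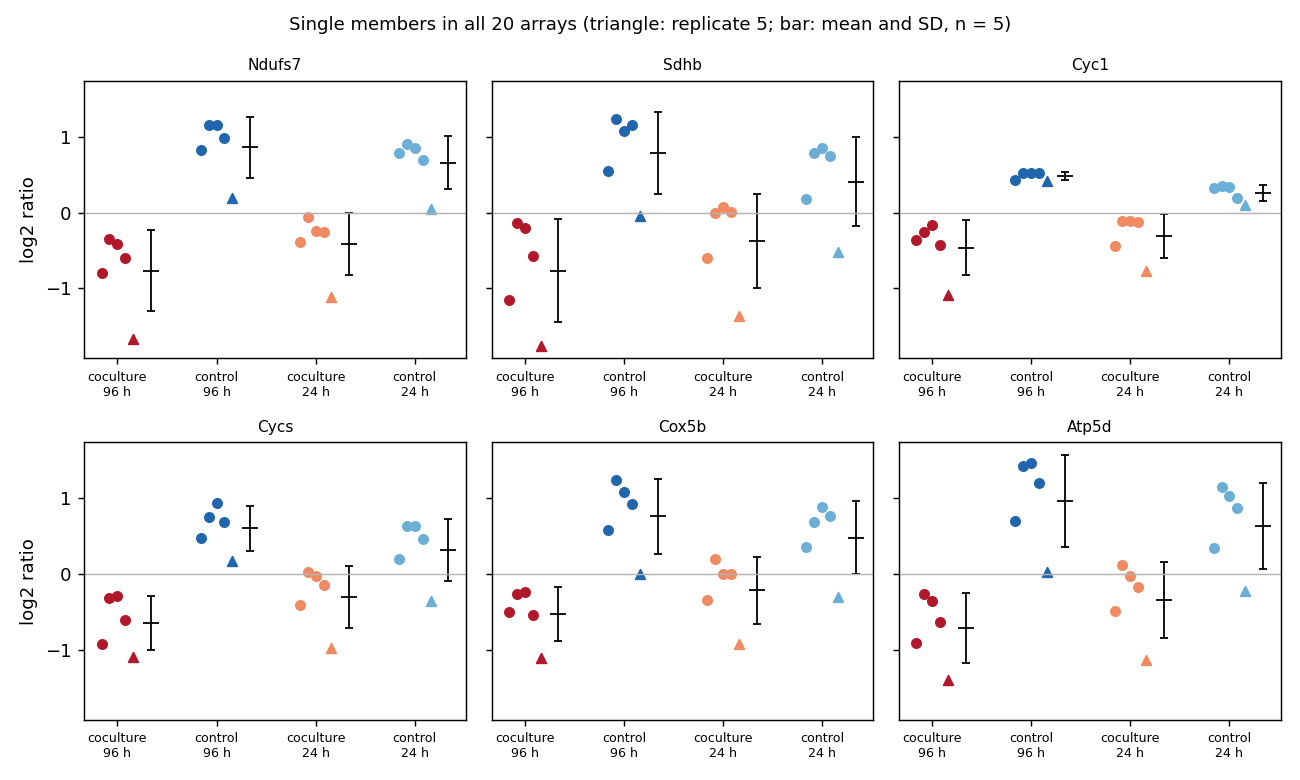
Log2 ratios of Ndufs7, Sdhb, Cyc1, Cycs (1 of its 2 probe sets), Cox5b and Atp5d in all 20 arrays, with group means and SD (n = 5) and replicate 5 as a triangle. At 96 h every coculture lies below every control in all 6 panels, and replicate 5 is the lowest array of each group.

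The 7 probe sets above 0 at 96 h shared a feature of the chip's design, which was noticed after their values were seen. They were Ndufs1, Ndufc2, Ndufb7, Cox6a1, Cox8a, Atp5b and Cox6c1, and each was designed from a cluster of at most 5 sequences; 6 of the 7 are labelled ConsEnd in the chip's annotation. Of the 12 members with at most 5 sequences, the other 5 lay below 0. All 53 members designed from more than 5 sequences lay below 0, and 48 of them fell, against 38.4% of the 9270 expressed probe sets of that kind. The median over these members was -0.83, against -0.38 over the expressed probe sets of that kind and -0.09 over those with at most 5 sequences. The only member that rose in the fit of group means alone, a ConsEnd probe set of Ndufc2, stood at 0.45 ± 0.16 (limma adjusted p = 0.0394). With the hybridisation covariate it stood at 0.21 and was not called (limma adjusted p = 0.525). It lost its call in 6 of 20 fits without 1 array, those without replicate 1 or 5 of the 96 h cocultures or replicate 1, 2, 3 or 4 of the 96 h controls (limma adjusted p up to 0.119).

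For 5 of these 7 genes another probe set of the same gene lay below 0. Ndufb7 gave -1.47 and 0.48, Cox6a1 -1.19 and 0.46, and Atp5b -0.83 and 0.57. Cox8a gave -0.85 and 0.39, and Ndufc2 -0.51 and 0.45. In each pair the lower value came from the probe set with more sequences in its cluster. Within the other 5 genes with 2 probe sets the gap was 0.10 to 0.76, with both below 0. Among these, Ndufa7 had its lower value, -1.10, in a ConsEnd probe set with 2 sequences, against -0.68 in the one with 29. The 2 readings of one gene thus differed by up to 1.95 on the log2 scale, more than the whole median change of any complex. What each probe set hybridises to was not tested.

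**Figure D4:**
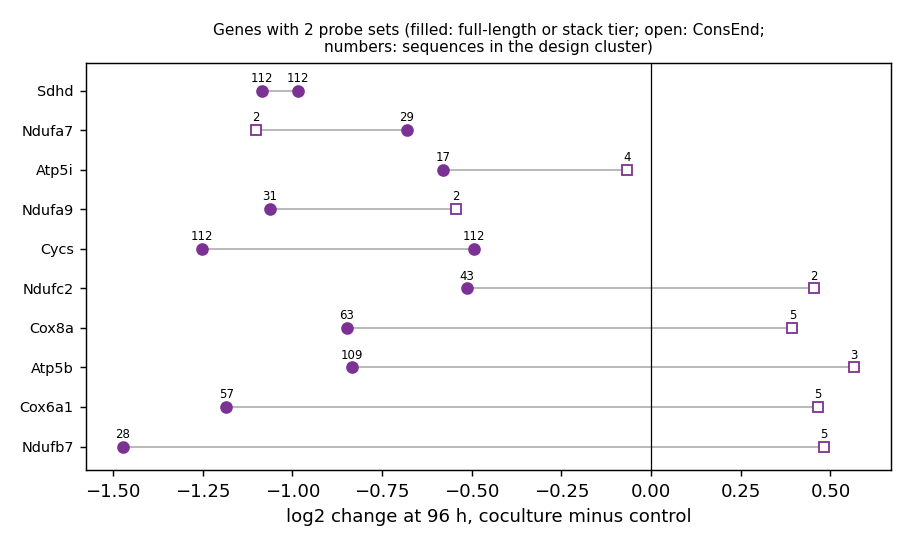
Log2 change at 96 h, coculture minus control, for the 10 genes with 2 probe sets, joined by a line; numbers are sequences in the design cluster and open squares are ConsEnd probe sets. In the lower 5 genes the probe set with at most 5 sequences lies above 0 and its partner between -1.47 and -0.51.

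Set side by side, the medians at 96 h ran from -1.09 in complex II over -0.87 in complex III, -0.87 in cytochrome c, -0.81 in complex V and -0.74 in complex I to -0.45 in complex IV. Over the 53 members with a full-length or stack label alone, complex IV had -0.57 and complex II -1.09. The place of complex II depended on the fit: with the hybridisation covariate the medians of all members were -0.26 in complex II, -0.29 in complex III, -0.23 in complex I, -0.22 in complex V and -0.15 in complex IV. With covariate and replicate block they were -0.56, -0.66, -0.63, -0.65 and -0.29 in the same order. Complex IV had the smallest median change of the 5 in each of these fits. Within arrays, complex IV had the highest median of the 5 complexes in 5 of 5 cocultures at 96 h, and the lowest in 4 of 5 controls. Complex II had the highest in 4 of 5 controls at 96 h. Since the values are ratios to each probe set's own median, these ranks restate the sizes of the changes and compare no levels. The median of complex II minus that of complex IV averaged -0.25 ± 0.20 in cocultures and 0.50 ± 0.35 in controls at 96 h (SD, n = 5). The complexes differ in number of probe sets and the probe sets in steepness of response, and no p is given for these medians. With array medians made equal, the medians were -0.85 in complex II and -0.21 in complex IV, and that of all expressed probe sets was -0.02.

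**Figure D5:**
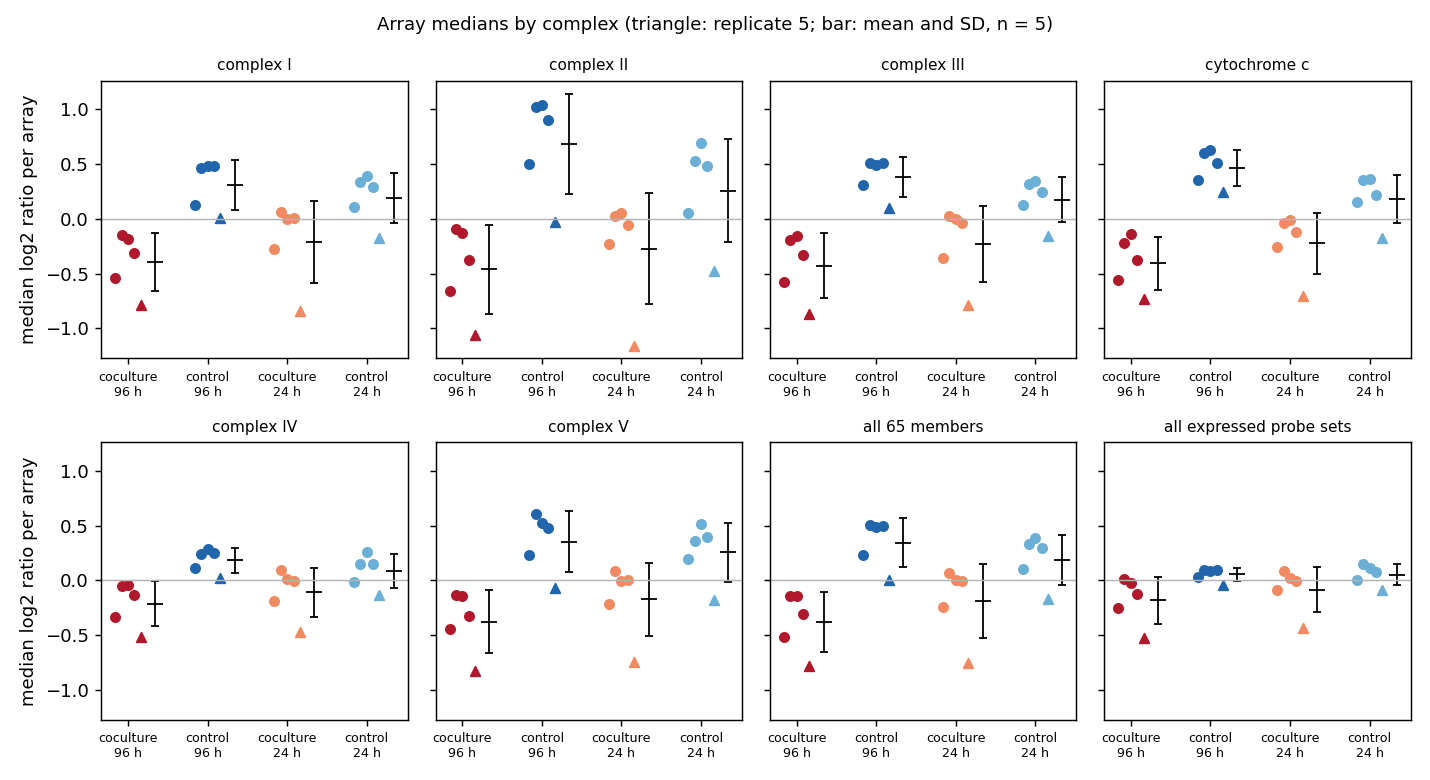
Median log2 ratio of each complex, of all 65 members and of all expressed probe sets in every array, with group means and SD (n = 5) and replicate 5 as a triangle. Complex II spans the widest range, with 96 h controls at 0.69 ± 0.46 and 96 h cocultures at -0.46 ± 0.40, and complex IV the narrowest of the complexes.

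Changes at 96 h were also set beside the promoter motifs. The lowest probe set of each gene had a median change of -0.66 in 8 genes with an NRF1 match and -0.83 in 37 without, of -0.81 in 16 with a GABP match and -0.82 in 29 without, and of -0.83 in 9 with a YY1 match and -0.79 in 36 without. Sdha, with 3 NRF1 matches in the sequence printed above, fell by 1.10, and Atp5g1 and Atp5d, with no match to any of the 3, changed by -1.35 and -1.68. These are descriptions of letters in a window.

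At 24 h the same direction was seen with fewer calls. Of the 65 members 2 fell and 0 rose, where 3.48% of expressed probe sets fell and 1.79% rose. At an unadjusted p under 0.05, 28 members fell and 0 rose (limma), with no such share of expressed probe sets given. The median change was -0.40, against -0.13 over expressed probe sets, and 57 of 65 members lay below 0. Every same-numbered coculture was below its control in 47 members, against 32.0% of expressed probe sets. With the replicate block 41 fell and 1 rose (27.2% and 10.9% of expressed probe sets), and without replicate 5 in any group 27 fell, where 15.8% of expressed probe sets did. By complex the medians were -0.55 in complex II, -0.49 in complex III, -0.42 in complex V, -0.41 in cytochrome c, -0.38 in complex I and -0.15 in complex IV. With the hybridisation covariate the medians lay between -0.12 and 0.01 in all 6 of these sets, and the members' median was -0.04, against 0.05 over expressed probe sets.

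The members called at 24 h were Ndufs7 and Cyc1. Ndufs7 had -0.39, -0.053, -0.25, -0.26 and -1.11 in the 24 h cocultures, against 0.79, 0.91, 0.86, 0.69 and 0.051 in the 24 h controls, a change of -1.07 ± 0.25 (limma adjusted p = 0.0204). It kept its call with the hybridisation covariate, at -0.54 (limma adjusted p = 0.00737). Cyc1 had -0.44, -0.11, -0.11, -0.12 and -0.77 in the 24 h cocultures, against 0.33, 0.35, 0.33, 0.19 and 0.10 in the 24 h controls, a change of -0.57 ± 0.16 (limma adjusted p = 0.0464). In both genes all cocultures lay below all controls, which 5.03% of expressed probe sets and no other member showed. The opposite arrangement was seen in 0 members and in 2.07% of expressed probe sets. Cyc1 lost its call in 13 of 20 fits that left out 1 array and Ndufs7 in 4, those without replicate 5 of the 24 h cocultures or replicate 2, 3 or 4 of the 24 h controls (limma adjusted p up to 0.125 and 0.0683). The count of members called was 13 without replicate 5 of the 24 h controls, 0 without any of the 4 arrays just named for Ndufs7, and 1 or 2 without any other.

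Between 24 h and 96 h the median change of the members was above 0 in controls and below 0 in cocultures, but no single member was called. In controls, 53 of 65 members were higher at 96 h, with a median change of 0.19 against 0.01 over expressed probe sets. Of the members 0 were called, where 0.128% of expressed probe sets rose. At an unadjusted p under 0.05, 2 members rose (limma), with no such share of expressed probe sets given. With the replicate block 6 rose (2.92% of expressed probe sets): Sdha, Sdhb and 1 probe set of Sdhd from complex II, and Ndufb7, Atp5d and Atp5g1. Complex II had a median of 0.43, and the other complexes and cytochrome c medians of 0.12 to 0.28. Sdha averaged 0.70 ± 0.49 in controls at 96 h and 0.24 ± 0.49 at 24 h (SD, n = 5), a change of 0.46 ± 0.29, with adjusted p-values of 1.0 without and 0.00902 with the block (limma).

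In cocultures, 56 of 65 members were lower at 96 h than at 24 h, with a median of -0.19 against -0.10 over expressed probe sets. None was called, where 1.01% of expressed probe sets fell. At an unadjusted p under 0.05, 3 members fell (limma), with no such share of expressed probe sets given. With the replicate block 21 fell, where 15.2% of expressed probe sets did, among them Ndufb7 at -0.71, the member with the largest change here (limma adjusted p = 3.8e-05 with the block). Without replicate 5 in any group 2 fell, where 7.38% of expressed probe sets did. With the hybridisation covariate the members' median over time was -0.06 in cocultures, against -0.03 over expressed probe sets. In controls it was 0.15, against -0.0009.

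The difference of the 96 h and 24 h effects of coculture was tested as an interaction. Its median was -0.38 over the members and -0.13 over expressed probe sets. Of the members 0 were called (smallest limma adjusted p = 0.851), where 0.0233% of expressed probe sets fell. At an unadjusted p under 0.05, 5 members fell (limma), with no such share of expressed probe sets given. With the replicate block 17 members fell (4.39% of expressed probe sets), from each complex: Ndufa9, Ndufb7, Ndufs3 and Ndufs7, Sdha, Sdhb and Sdhd, Uqcrh, Cycs, Cox5a, Cox5b and Cox6a1, and Atp5d, Atp5f1, Atp5g1, Atp5h and Atp5o. Ndufb7 had an interaction of -1.11 ± 0.38 and Sdhb of -0.77 ± 0.50, with the SE of the fit without the block, in which neither was called. Both were called with the block (limma adjusted p = 9.11e-05 and 0.0025). The 24 h and 96 h comparisons share no arrays, but same-numbered arrays deviated together.

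Genes that serve the machinery were counted from lists of textbook members, to be read against the 30.0% of expressed probe sets that fell and the 8.52% that rose at 96 h, the 6.60% and 9.00% with the hybridisation covariate, and the 39.5% and 15.2% without replicate 5. Of 17 probe sets for assembly factors of the complexes, 11 fell (64.7%) and 0 rose at 96 h, with a median of -0.73. With the covariate 4 fell and 1 rose, with a median of -0.26, and without replicate 5 in any group 12 fell and 0 rose. Cox10, an enzyme needed to make the haem of complex IV, averaged -0.30 ± 0.16 in cocultures and 0.52 ± 0.08 in controls (SD, n = 5), and Sdhaf1, which helps to insert iron-sulphur clusters in Sdhb, -1.16 ± 0.40 in cocultures and 0.15 ± 0.23 in controls (limma adjusted p = 1.43e-05 and 7.36e-05). Of 27 probe sets for pyruvate dehydrogenase and the citric acid cycle, which supply the electrons, 21 fell (77.8%) and 1 rose, with a median of -0.95. With the covariate 7 fell and 1 rose, with a median of -0.28, and without replicate 5 there were 22 falls and 2 rises. The one that rose was Suclg2, a subunit of succinyl-CoA ligase, at 1.16 ± 0.21, while Pdp2, a phosphatase that activates pyruvate dehydrogenase, fell by 0.85 in 1 of its 2 probe sets (limma adjusted p = 0.00095 and 0.000701).

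Of 28 probe sets for import into mitochondria 24 fell (85.7%) and 0 rose, with a median of -0.78. With the covariate 7 fell and 0 rose, with a median of -0.27, and without replicate 5 there were 25 falls and 1 rise. Timm22, the channel for carrier proteins of the inner membrane, fell by 1.19 and 1.78 in its 2 probe sets, and the import factor Tomm34 by 0.83 and 1.03 (limma adjusted p = 5.08e-05, 0.000178, 0.000106 and 0.00621). The second probe set of Tomm34 lost its call with the covariate (limma adjusted p = 0.317). Of 25 probe sets for carriers and channels 11 fell (44.0%) and 2 rose, with a median of -0.54. With the covariate the direction of this list was lost: 5 fell and 4 rose, with a median of 0.04, and the median was -0.01 with covariate and block. Without replicate 5 there were 14 falls and 4 rises. Among them Slc25a11, the oxoglutarate carrier, fell by 1.16, and Slc25a5, an ADP/ATP carrier, by 0.84 (limma adjusted p = 5.7e-05 and 0.000205).

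Further lists held genes that act on mitochondrial DNA and on nuclear promoters. Of 25 probe sets for expression of the mitochondrial genome 8 fell and 1 rose, with a median of -0.36, a share of 32.0% beside 30.0% of all expressed probe sets. With the covariate 1 fell and 0 rose, with a median of 0.04, and without replicate 5 there were 10 falls and 2 rises. Polg, the mitochondrial DNA polymerase, changed by -0.73 and Gfm1, a translation elongation factor, by -1.53 (limma adjusted p = 0.000568 and 0.00466), the call of Gfm1 being lost with the covariate (limma adjusted p = 0.168). Of 16 probe sets for regulators of biogenesis 5 fell and 0 rose, with a median of -0.38, a share of 31.2%. With the covariate 1 fell and 1 rose, with a median of -0.19, and without replicate 5 there were 8 falls and 1 rise. Nrf1, which binds the first motif searched, fell by 0.85 in 1 of its 2 probe sets (limma adjusted p = 0.00534), a call lost with the covariate (limma adjusted p = 0.254). Its other probe set stood at 0.32 (limma adjusted p = 0.346), rose with the replicate block (limma adjusted p = 0.015) and, with the covariate, fell by 0.57 (limma adjusted p = 0.0188), so these probe sets give Nrf1 no common direction. The coactivator Ppargc1a averaged -0.17 ± 0.33 in cocultures and 1.12 ± 0.82 in controls (SD, n = 5; limma adjusted p = 0.0072). Its call was lost with the covariate (limma adjusted p = 0.219), and with covariate and block its change turned to 0.78 (limma adjusted p = 0.953). At 24 h the 6 lists had 0 to 2 falls each, with medians between -0.57 and -0.11, where 3.48% of expressed probe sets fell. With the replicate block, where 27.2% did, the falls were 10 in assembly, 21 in the citric acid cycle, 21 in import, 10 in carriers, 7 in mitochondrial genome expression and 5 in regulators.

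Markers of other cell types were counted beside the members. All 4 probe sets of the radial glia list (4 genes) rose at 96 h, by 0.93 (Pax6) to 5.34 (Fabp7), and their mean log2 ratio ran from 0.50 to 1.33 in 96 h cocultures and from -1.74 to -1.19 in 96 h controls. In the oligodendrocyte list 2 of 6 probe sets rose, Pdgfra and Olig1 (means of 0.26 to 0.95 in cocultures and -1.41 to -0.30 in controls). The astrocyte list had 4 of 11 higher and 2 lower (0.19 to 0.67 in cocultures and -0.40 to -0.10 in controls). Of 16 neuronal probe sets 4 fell and 1 rose, a share of 25.0% beside the 30.0% of expressed probe sets that fell (-0.81 to 0.09 in cocultures and -0.18 to 0.34 in controls), and of 6 probe sets of subplate markers 2 fell and 1 rose (-1.20 to 0.12 in cocultures and -0.22 to 0.43 in controls). Of 2 endothelial and pericyte probe sets 1 rose, and the only fibroblast probe set was not called. With the covariate 2 radial glia, 2 oligodendrocyte and 5 astrocyte probe sets rose and none of these lists had a fall; 0 neuronal probe sets fell and 2 rose, with a median of 0.11, and no subplate, endothelial or fibroblast probe set was called (limma). Without replicate 5 the falls and rises were 0 and 4 in radial glia, 1 and 2 in oligodendrocytes, 3 and 4 in astrocytes, 5 and 1 in neurons, 3 and 1 in subplate markers and 0 and 2 in the endothelial list. The p75 receptor used for panning and the microglial list had no probe set in the table of expressed genes. The part of these cell types in the fall of the respiratory genes was not tested.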

How the data were processed

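The files hold ratios for 20 arrays. Each ratio deposited by the authors is a probe set's signal over its median across the 20 arrays: that median is 1 within 0.001 for 31069 of 31099 probe sets. The submitters' processing notes name MAS5 and RMA, without versions or order, and for background correction, slide and scan date the sources used here give nothing. The authors' table of expressed genes keeps probe sets with at least 10 present calls.

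Samples were grouped by coculture and time from their labels. The deposited ratios were taken to log2 with a pseudocount of 0, and the 57 chip control probe sets were left out. A model with 4 group means over all 20 arrays (16 residual degrees of freedom) was fitted in R 4.3.3 using limma 3.58.1, and p-values were adjusted by the Benjamini-Hochberg method over 31042 probe sets, with a threshold of 0.05. SciPy 1.17.1, pandas 2.3.3 and matplotlib 3.10.9 under Python 3.11.15 gave the exact permutation tests, counts and plots. The fit was tested on simulated data: at 96 h, changes of -0.5, -1, -1.5 and -2 were called in 22%, 78%, 96% and 98% of 50 probe sets each, among 31042. Noise was drawn independently for each array and probe set, and few probe sets were changed. In the data 30.0% of expressed probe sets fell at 96 h and same-numbered arrays deviated together, so these shares do not give the sensitivity of the reported fit. The number of arrays limits the precision. The labels call the 5 samples of a group biological replicates. The limma p-values weigh a difference of groups against the spread between such replicates, pooled over the 4 groups. The model of 4 group means takes no account of replicate numbers.

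Replicate numbers recur across the groups, and same-numbered arrays deviated together from their group means in all 30 pairs (correlation at least 0.243, median 0.524, against a median of -0.23 in 120 pairs with different numbers). The highest correlation among those 120 pairs was 0.737, so some arrays with different numbers deviated together too. The pairing by number comes from the data, not from a stated litter or day. Counts with the replicate block are given where they differ. Alternatives were the block, the hybridisation covariate, both together, other scalings, only the groups compared, a 1.5-fold minimum, and arrays left out.

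Members and gene lists were chosen with earlier results of these data known. Genes named by rule were core subunits and isoform families whatever their values, the 2 members per complex with the smallest p in each comparison of groups, the 3 with the smallest p in the interaction, members of opposite sign (up to 3 per complex), members whose probe sets differ by over 1 on the log2 scale, and the 2 genes per pathway list with the smallest p. That gave 39 probe sets for 32 genes, beside 1 gene that is not reported here; 8 core genes were not members. Other members are named as parts of counts or as chosen after their values were seen. Member rows with several symbols (2) were left out. Older symbols were matched to RefSeq; Sdhaf1 and Gfm1 appear in the deposited annotation under older names.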

Additional observations from a re-analysis of the deposited data

Results flagged for a closer look

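Replicate 5 was far from the other arrays of its group in 17 of 188 groups of 5 values examined; chance flags about 1 in 20 groups. The gap to the nearest array, as a share of the group's range, exceeded Dixon's critical value of 0.71. In the 96 h cocultures it was 0.717 for Cyc1, 0.842 for Atp5g3 and 0.792 for the ConsEnd probe set of Cox8a. In the 96 h controls it was 0.756 for Atp5a1. In the 24 h cocultures it was 0.774 for Sdha, 0.731 and 0.714 for the probe sets of Sdhd, 0.737 for 1 probe set of Cycs, 0.748 for Atp5a1, 0.798 for Ndufb6 and 0.766 for the median of complex II. In the 24 h controls it was 0.741 for Ndufs7, 0.882 for Ndufv2, 0.79 for Atp5a1, 0.744 for Atp5b, 0.748 for Atp5c1 and 0.775 for Cox6c1. The genes share their arrays, so these are not independent events.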

How the results depend on the processing

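At 24 h the count of 2 called members was 42 with the replicate block, 38 with a random block, 1 with the hybridisation covariate, 0 with block and covariate together, 1 with only the groups compared, 5 after cyclic loess, 1 at 1.5-fold or more and 27 without replicate 5 in all groups, and 0 to 13 without 1 array. At 96 h the count of 53 was 16 with the covariate, 0 with block and covariate, and 43 to 58 without 1 array. The counts of 0 were, in controls over time, 6 with the block, 2 with the covariate, 5 with both, and 0 without any 1 array; in cocultures over time, 21 with the block, 6 with the random block, 2 with the covariate, 1 with both, 2 without replicate 5 and 0 to 1 without 1 array; and in the interaction, 17 with the block, 1 with the random block, 1 with the covariate, 1 with both, 1 without replicate 5 and 0 without any 1 array. These counts add rises and falls and show dependence on the fit, not enrichment over expressed probe sets. With the covariate, 482 of 17191 expressed probe sets fell and 983 rose at 24 h. Over time 141 fell and 260 rose in controls, and 821 fell and 855 rose in cocultures. In the interaction 48 fell and 43 rose. Alternatives without replicate 5 in all groups, with full-length and stack probe sets alone, and with swaps within pairs were chosen after seeing the data.

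With the covariate the medians at 24 h were -0.061 in complex I, 0.012 in complex II, -0.078 in complex III, -0.12 in cytochrome c, -0.026 in complex V and 0.054 over expressed probe sets. At 96 h they were -0.23, -0.26, -0.29, -0.44, -0.15 and -0.22 in complexes I, II and III, cytochrome c, and complexes IV and V, and 0.017 over expressed probe sets. With equal array medians cytochrome c had -0.64, complex IV -0.21 and the expressed probe sets -0.018 at 96 h; after cyclic loess complex IV had -0.12 and the expressed probe sets 0.043. Without 1 array the medians at 96 h ranged from -0.85 to -0.65 in complex I, -1.27 to -0.96 in complex II, -0.93 to -0.74 in complex III, -0.94 to -0.79 in cytochrome c, -0.52 to -0.33 in complex IV, -0.92 to -0.71 in complex V and -0.32 to -0.16 over expressed probe sets. At 24 h these ranges were -0.54 to -0.26, -0.74 to -0.34, -0.55 to -0.36, -0.50 to -0.29, -0.20 to -0.044, -0.56 to -0.26 and -0.18 to -0.035. Changes over time in controls ranged from 0.05 to 0.24, 0.25 to 0.60, 0.14 to 0.28, 0.19 to 0.34, 0.08 to 0.18, 0.05 to 0.26 and -0.015 to 0.046.

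Uqcrfs1 and Cox4i1, both called at 96 h, turned sign with the covariate, to 0.030 and 0.016, and Ppargc1a with block and covariate, to 0.78 (limma adjusted p = 0.931, 0.949 and 0.953). Members not called without the covariate turned sign with it too, among them Ndufb4 to 0.09 and Ndufa6 to 0.46 (limma adjusted p = 0.688 and 0.0225). The cause was not tested. Of 90 results for single named genes, 43 kept direction and side of the threshold with the covariate, 59 with the block, where the other 31 gained a call, and 83 with equal medians. The hybridisation controls differ between cocultures and controls, so a covariate built on them takes up part of the group difference by construction. Background correction, slide and scan date could not be tried on processed values.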
